A study of Mus musculus with 2 samples.

Results

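Heat shock proteins and their co-chaperones were examined in immune cells of the mouse cecum. Members were taken by symbol: every Hspa, Hspb, Hspd, Hspe and Hsph gene, the Hsp90 genes, the J-domain protein genes Dnaja, Dnajb and Dnajc, and the Bag genes, with at least 100 unique molecular identifier counts (UMIs) in the deposited matrix. Of 55487 gene symbols, 72 met this rule. They were sorted by role into 11 inducible members of the cytosol and nucleus, 22 constitutive members of the same compartments, 11 members of the endoplasmic reticulum, 8 mitochondrial members and 20 others. Just inside the minimum were Dnajc22 with 112, Hspb2 with 114 and Dnajc28 with 123 UMIs, and just outside it were Dnajc5g with 60 and Dnajb3 with 46.

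Heat shock proteins are chaperones that hold, fold and refold other proteins. HSP70 proteins bind unfolded stretches in a cycle driven by ATP, J-domain proteins deliver clients to them, and nucleotide exchange factors such as Hsph1 and the Bag proteins release those clients. HSP90 acts on later folding steps, and each organelle has its own set: Hspa5 and Hsp90b1 in the endoplasmic reticulum, Hspa9 and the Hspd1 and Hspe1 chaperonin in mitochondria. Inducible members are switched on by heat shock factor when proteins misfold, whereas the endoplasmic reticulum set answers to the unfolded protein response. In cells prepared from tissue, inducible members are also known to respond to enzymatic digestion and warming.

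Immune cells bearing CD45 were taken by sorting from cecum tissue of 4 male mice, 101 days old, after release with dispase and collagenase II. The groups were 2 littermate controls (CTRL) and 2 Trpv1-ADC mice, in which neurons carrying the capsaicin-gated channel Trpv1 were to be activated, and the study asked how cecal immune cells respond to that activation. Per the labels, treatment was an AAV given neonatally into the peritoneum and 7 injections of CNO, the ligand of designer receptors, on alternate days, and no group is named as free of either. Trpv1-WT.B6 and Trpv1-Cre.B6 are the strains listed, and neither is tied to a mouse, so activation and strain cannot be told apart here. The mice are called CTRL 1, CTRL 2, Trpv1-ADC 1 and Trpv1-ADC 2, and carried hashtags 1, 3, 7 and 9 on CD45 in a single droplet run. The mouse was the replicate (n = 2 per group), and the numbers are names that pair no mice.

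After filtering, 17333 cells remained (4338, 4118, 4396 and 4481 in the order above), with 27269788 to 29338220 UMIs per mouse and a median of 5536 to 5672 per cell. Ptprc, the CD45 gene used for the sort, had a UMI in 96.6% of them (exact 95% binomial interval 96.3 to 96.9, counting error only). It had one in 67.9% of 648 cells of non-immune clusters (median 12380 UMIs) and in 97.7% of the other cells (median 5546). Clusters were formed with every member gene left out, named "like" a cell type from marker genes, and 15 classes with at least 20 cells in every mouse were tested. Levels are given in CPM, the UMIs of a gene in a class and mouse scaled to a common total. Fold changes are log2, Trpv1-ADC over CTRL, with the standard error (SE), from edgeR's quasi-likelihood test on UMIs summed per mouse and class, with Benjamini-Hochberg adjustment over all genes of a class. A gene was called at an adjusted p under 0.05, and groups were called apart when both mice of one lay above both of the other.

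The members most counted over the whole matrix were the constitutive HSP90 gene Hsp90ab1 with 300175 UMIs, the inducible HSP70 genes Hspa1b with 270755 and Hspa1a with 246562, the constitutive HSP70 gene Hspa8 with 234754, the inducible HSP90 gene Hsp90aa1 with 198322 and Hspa5 with 197998. These are totals of tagged molecules, not divided by gene length. Hspa1a and Hspa1b lie close together on chromosome 17 (17:34969359-34972156 and 17:34956429-34959238, GRCm38.p6) and encode nearly the same protein, so reads can be split between them and their sum is the safer value.

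Promoters were searched for motifs that the respective stress factors are known to use, and shares are given by role with no test. RefSeq promoters (GRCm38.p6, 250 bases before to 50 after a start) were given for 56 of the 72 members. Hsp90aa1 and Hspa8 were among those without one. A pair of inverted heat shock units, searched as GAANNTTC or TTCNNGAA on both strands, stood in 8 of 10 inducible genes with a promoter, in 1 of 17 constitutive genes, 1 of 10 endoplasmic reticulum genes, 2 of 5 mitochondrial genes and 3 of 14 others, against 16.97% of 27025 genes of the table. Inducible genes with a pair were Hspa1a, Hspa1b, Hspb1, Hspb8, Hsph1, Dnaja1, Dnajb4 and Bag3. A gene counted if the window of any of its starts held a pair, which favours genes with several starts. By window, a pair stood in 9 of 15 inducible windows (60.0%) against 15.06% of all windows. Stretches from 130 to 31 bases before the start are shown for members that recur below, in lower case with each unit pair in capitals. Of several starts in the table, the one whose stretch held most pairs is shown. For Hsph1 and Dnaja4 it lies inside the annotated span of the gene, and the other start of Dnaja4 had no pair in its window.
Hspa1a (17:34972187-34972286, minus strand): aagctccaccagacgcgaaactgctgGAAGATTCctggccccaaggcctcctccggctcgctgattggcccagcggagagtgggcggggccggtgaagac
Hspa1b (17:34959269-34959368, minus strand): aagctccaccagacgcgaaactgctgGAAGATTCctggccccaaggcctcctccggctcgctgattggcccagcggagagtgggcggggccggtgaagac
Hspb1 (5:135887789-135887888, plus strand): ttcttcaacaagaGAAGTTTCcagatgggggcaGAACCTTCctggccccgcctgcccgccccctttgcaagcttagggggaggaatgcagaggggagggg
Hsph1 (5:149636346-149636445, minus strand): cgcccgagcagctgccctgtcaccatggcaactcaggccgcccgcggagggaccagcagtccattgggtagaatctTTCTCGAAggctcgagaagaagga
Dnaja1 (4:40722338-40722437, plus strand): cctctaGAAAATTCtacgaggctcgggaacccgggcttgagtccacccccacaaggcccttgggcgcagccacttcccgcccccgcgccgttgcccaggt
Dnaja4 (9:54699429-54699528, plus strand): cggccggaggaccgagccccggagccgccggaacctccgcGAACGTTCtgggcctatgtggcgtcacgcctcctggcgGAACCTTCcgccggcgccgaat
Hspe1 (1:55088018-55088117, plus strand): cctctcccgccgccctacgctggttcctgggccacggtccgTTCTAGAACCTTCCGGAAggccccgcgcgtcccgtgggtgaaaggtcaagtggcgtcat

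The Hspa1a and Hspa1b stretches were identical in 100 of 100 bases. Hspe1, a mitochondrial member, holds overlapping pairs that form 3 or more inverted units in a row, an arrangement found in 0.66% of all genes and among members in Dnajb6, Hspd1, Hspe1 and Hsph1. Hspe1 (1:55088148-55091317) and Hspd1 (1:55077833-55088243) lie head to head with overlapping annotated ends, and a promoter window of each covers the same stretch. The endoplasmic reticulum stress element, CCAAT and CCACG separated by 9 bases, was found in 3 of 10 endoplasmic reticulum members, Hspa5, Hsp90b1 and Dnajc3, against 0.14% of all genes. It overlaps the CCAAT motif by construction, which 41.06% of genes hold. In these 3 stretches the element is in capitals, on the opposite strand in Hsp90b1.
Hspa5 (2:34771960-34772059, plus strand): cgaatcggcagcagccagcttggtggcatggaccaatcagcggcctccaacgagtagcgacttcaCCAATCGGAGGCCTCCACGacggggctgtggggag
Hsp90b1 (10:86705475-86705574, minus strand): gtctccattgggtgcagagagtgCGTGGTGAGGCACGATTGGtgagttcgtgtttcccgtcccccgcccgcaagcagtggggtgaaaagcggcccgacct
Dnajc3 (14:118937802-118937901, plus strand): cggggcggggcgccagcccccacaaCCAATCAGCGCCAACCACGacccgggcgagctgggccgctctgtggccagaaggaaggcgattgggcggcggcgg
A match describes these windows and does not show binding.

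Inducible members were higher in Trpv1-ADC mice in most classes. Their summed level had its groups apart, higher in Trpv1-ADC mice, in 13 of the 15 classes. The classes share the same 4 mice and so are not independent. In monocyte-like cells the sum was 3791 and 5159 CPM in CTRL 1 and CTRL 2 and 9994 and 11380 in Trpv1-ADC 1 and Trpv1-ADC 2. In B cell-like cells it was 1522, 2818, 5456 and 9285 CPM in the same order, and in ILC3-like cells, innate lymphocytes of the gut wall, 4010, 6548, 15260 and 11840. Regulatory T cell-like cells, whose known role is to hold immune responses back, overlapped at 4206, 5254, 5173 and 6200 CPM, a ratio of means of 1.2. ILC2-like cells, innate lymphocytes of type 2 responses, overlapped too, at 3968, 6321, 5570 and 12070. The ratio of means was largest in B cell-like cells, at 3.4. CTRL 1 was the lowest mouse in 14 classes and Trpv1-ADC 2 the highest in 12, so the mice of a group also differed from each other in the same order across classes. The summed constitutive members gave ratios of 0.964 to 1.58.

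**Figure D1:**
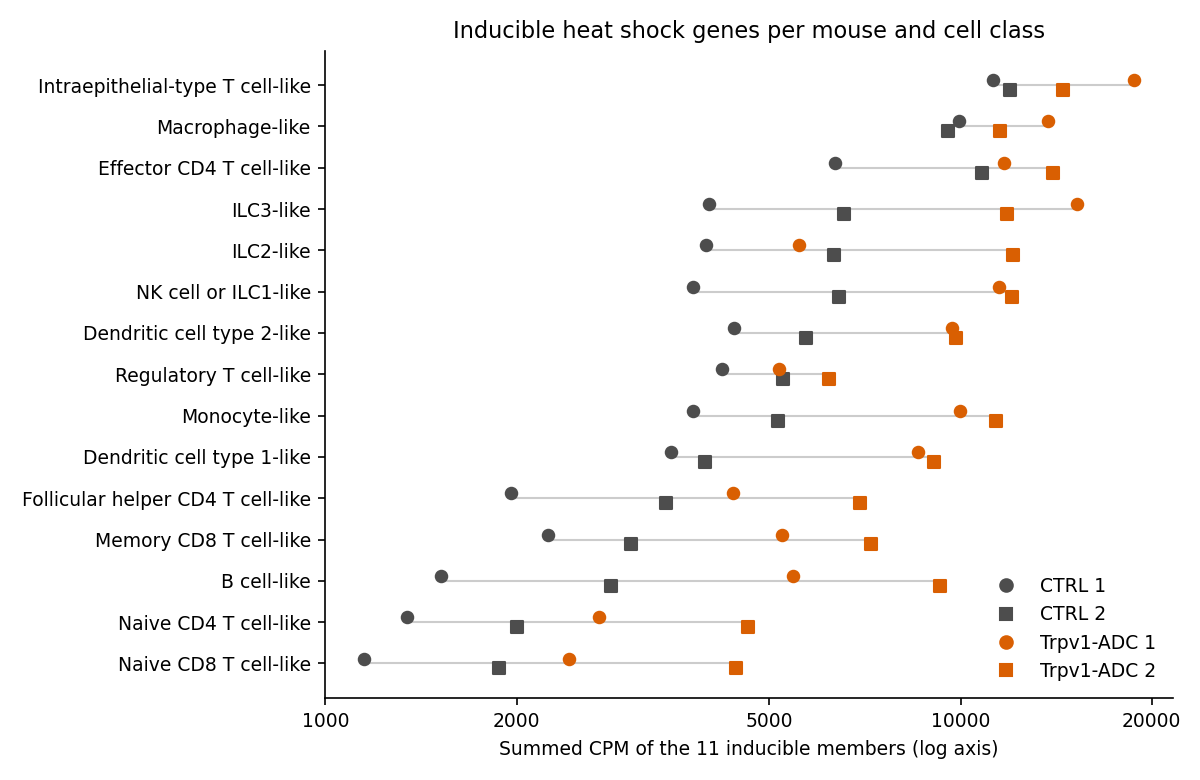
Summed CPM of the 11 inducible members per class, on a log axis, with a point for each of the 4 mice. Both Trpv1-ADC mice lie above both CTRL mice in 13 of 15 classes, and regulatory T cell-like and ILC2-like cells overlap.

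Base levels differed between classes as well. Naive CD8 T cell-like cells had the lowest inducible sum in CTRL mice (1151 and 1879 CPM) and intraepithelial-type T cell-like cells, the lymphocytes of the gut lining, the highest (11250 and 11980). The latter reached 18780 and 14500 CPM in Trpv1-ADC mice, a ratio of 1.43. Macrophage-like cells, with 9945, 9554, 13730 and 11530 CPM, had a ratio of 1.3. In CTRL 2, 24 of their 46 cells came from a cluster with a median of 1451 UMIs, and the part of that cluster in the result was not tested.

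By role, the inducible members stood apart from the others. Over the 15 classes, 147 tests of inducible members gave 26 higher calls (17.7%) and 0 lower, where edgeR called 0.521% of all gene tests higher and 0.558% lower. Their median log2 fold change was 0.79, and 92.5% of values were positive, against 0.002 and 50.3% over all genes. Groups were apart and higher in 113 of these tests (76.9%, against 20.9% of all gene tests) and apart and lower in 2 (background 19.1%). The tests of one gene in several classes share mice, and the role lists were chosen with earlier results of these data known. The higher calls include Hspb1 in ILC3-like cells, which passed the low-count filter only through the Trpv1-ADC mice. These shares are therefore descriptions.

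Constitutive members, by contrast, gave 4 higher calls in 284 tests (1.41%), a median of -0.008 and 47.5% positive values. Groups were apart and higher in 71 of their tests (25.0%) and lower in 51, near the background. Members of the endoplasmic reticulum gave 1 higher and 3 lower calls in 147 tests, with a median of -0.025. Mitochondrial members gave 4 higher calls in 104 tests, all of them of Hspe1 or Hspd1, and a median of 0.037. The other members gave 3 higher calls in 91 tests. These include Hspa1l in intraepithelial-type T cell-like cells, which passed the low-count filter only through the Trpv1-ADC mice. Of the 72 members, 65 passed the low-count filter in a class, 33 in all 15, and 7 (Hspb8, Hspa12a, Hspa12b, Hspb6, Dnajc28, Hspb2 and Dnajc22) in none. In all, 773 tests gave 38 higher and 3 lower calls of 18 members in 9 classes.

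Among inducible members, Hspa1a had a positive log2 fold change in 15 of 15 classes, with groups apart in all 15, 3 calls and a median of 1.63. Hspa1b was positive in 15, apart in 13 and called in 4 (median 1.43). Hsph1, the exchange factor of HSP70, was positive in 15, apart in 14 and called in 6, the most of any member (median 1.29). Bag3, which links HSP70 clients to autophagy, was positive in 15, apart in 12 and called in 4. Hsp90aa1 was apart in 12 and called in 4, and Dnajb1, a J-domain protein of the heat shock response, was apart in 10 and called in 2. Dnaja1, another J-domain protein, was positive in 12 classes, apart in 10 and called in 0 (edgeR). Hspb1, the small heat shock protein HSP27, varied most, from -1.15 to 2.68, with 2 calls in 14 classes.

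The constitutive list was not uniform. Hspa8 was positive in 15 classes and Hsp90ab1 in 13, with medians of 0.60 and 0.41, groups apart in 10 and 11, and 2 calls each. The 4 calls of the constitutive list were all of these 2 genes. Dnajb6 and Dnaja2, J-domain partners of cytosolic HSP70, were positive in 2 and 1 of 15 classes, with groups apart and lower in 6 and 5 and no call. In the mitochondrial list the chaperonin genes Hspe1 and Hspd1 were positive in 14 and 15 classes (medians 0.67 and 0.81), while the mitochondrial HSP70 gene Hspa9 was positive in 6 and apart higher in 5 and lower in 5. In the endoplasmic reticulum list Hspa5, the HSP70 known as BiP, was positive in 1 class of 15 and apart lower in 8 (median -0.23). Hsp90b1, the HSP90 of the same compartment, was positive in 7, with a median of -0.006.

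**Figure D2:**
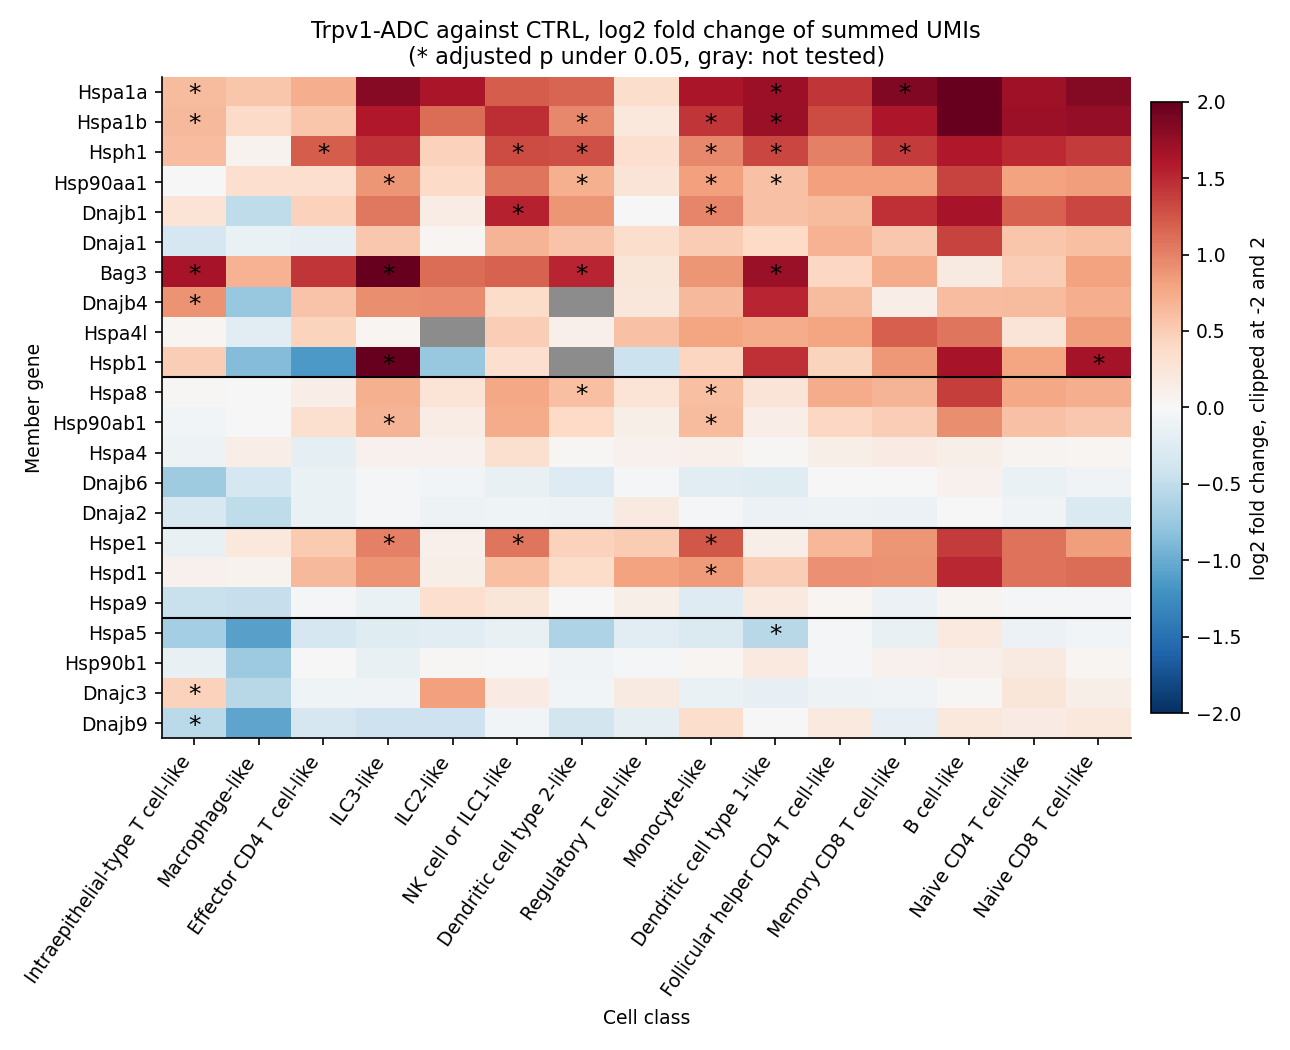
Map of log2 fold changes of members by class, with colour for the fold change, a mark for each call and gray where the gene was not tested. Inducible rows carry positive values across nearly all columns, and the Hspa5 row carries negative values in 14 of 15.

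The ratio of inducible to other members within a mouse gave the same picture. On the log2 scale of summed CPM, the difference between groups against constitutive members had a median over classes of 0.73 (range 0.16 to 1.13), with groups apart in 12 of 15. Against the endoplasmic reticulum it was 1.2 (0.4 to 1.65, apart in 14) and against mitochondrial members 0.57 (-0.17 to 1.03, apart and higher in 14). Regulatory T cell-like cells were the exception for mitochondrial members, with groups apart and lower at -0.17. Without Hspa1a and Hspa1b the medians were 0.45, 0.91 and 0.23, and groups were apart in 11, 14 and 8 classes. The mean of log2(CPM + 1) over members gave 0.79 against constitutive members, with groups apart in 12.

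Monocyte-like cells had the most members called: 8 of 47 tested rose and 0 fell (edgeR), where 0.501% of all genes were called higher and 0.673% lower. Of 10 inducible members tested, 9 had their groups apart and higher (background 20.3%). The 8 called spanned HSP70, HSP90, the HSP70 helpers and the mitochondrial chaperonin. The class held 161 and 143 cells in CTRL 1 and CTRL 2 and 104 and 76 in Trpv1-ADC 1 and Trpv1-ADC 2. Hspa1b stood at 1234 and 1717 CPM in the CTRL mice and at 3754 and 4059 in the Trpv1-ADC mice, a log2 fold change of 1.43 ± 0.15 (SE, edgeR adjusted p = 0.0018). Hspa1a had its groups apart too, at 962, 1640, 3713 and 4180 CPM, but its 1.63 ± 0.34 did not pass (edgeR adjusted p = 0.263). The sum of both genes was 2196, 3357, 7466 and 8239 CPM, a ratio of means of 2.83.

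Of the helpers of HSP70 in monocyte-like cells, Hsph1 rose from 111 and 130 CPM to 230 and 231 (0.96 ± 0.17, edgeR adjusted p = 0.0073). Dnajb1 rose from 109 and 161 CPM to 277 and 246 (0.98 ± 0.19, edgeR adjusted p = 0.0177). Both Trpv1-ADC mice lay above both CTRL mice for each. Bag3 overlapped, at 63.9, 107, 95.3 and 221 CPM, with 0.89 and an edgeR adjusted p of 0.650, and Dnaja1 (372, 491, 538 and 662 CPM) gave 0.50 (0.176). Hspb1 was low, at 9.16 to 14.6 CPM in the 4 mice, and did not pass (0.776).

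HSP90 and the constitutive HSP70 rose less in log2 fold change than Hspa1b. Hsp90aa1 stood at 863 and 847 CPM in CTRL and 1259 and 1689 in Trpv1-ADC mice (0.81 ± 0.14, edgeR adjusted p = 0.0073). Its constitutive relative Hsp90ab1 stood at 1093 and 1338 against 1911 and 1767 (0.63 ± 0.12, edgeR adjusted p = 0.0127). Hspa8 stood at 1625 and 1788 against 2574 and 2479 (0.59 ± 0.10, edgeR adjusted p = 0.0064). All 3 had their groups apart, and no test compared these fold changes with that of Hspa1b.

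The mitochondrial chaperonin rose in the same cells. Hspe1, its lid, went from 248 and 356 CPM to 703 and 700.2 (1.24 ± 0.16, edgeR adjusted p = 0.0015), and Hspd1, its ring, from 113 and 136 to 205 and 236 (0.85 ± 0.18, 0.0247). Hspa9, in the same organelle, did not pass, at 89.9, 94.3, 87.4 and 62.0 CPM (-0.26, 0.675). In the endoplasmic reticulum, Hspa5 was at 2077 and 2665 against 1863 and 1955 CPM (-0.28, edgeR adjusted p = 0.327) and Hsp90b1 at 697, 664, 759 and 608 (0.04, 0.940).

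Other lists moved in the monocyte-like class. Immediate early genes, which also respond to cell preparation, summed to 12430 and 12090 CPM in CTRL and 14230 and 14480 in Trpv1-ADC mice, with 3 of 18 called higher: Atf3 (317, 393, 661 and 804 CPM, 1.07), Klf2 (0.92) and Btg2 (0.65). Of the unfolded protein response genes, Sdf2l1, which works with Hspa5, rose (48.2, 62.3, 99.3 and 116 CPM, 0.98, edgeR adjusted p = 0.0416). Ribosomal protein genes summed to 52660 and 50290 against 55640 and 60100 CPM. The 12 monocyte markers summed to 12120 and 13190 against 15140 and 16770, and 8 naive T cell markers, a list that holds Klf2, to 569 and 551 against 932 and 1045. The 7 general T cell markers stayed between 50.3 and 67.8 CPM and epithelial markers between 43.6 and 102 in every mouse. The part of these lists in the result was not tested. The calls depended on single mice, with 5 members called without CTRL 1, where Hspd1, Dnajb1, Hspa8 and Hsp90ab1 were lost (edgeR adjusted p = 0.105 to 0.199), 1 without Trpv1-ADC 1 and 0 without Trpv1-ADC 2. Fold changes without Trpv1-ADC 2 were 0.58 to 1.36 (log2) for the 8 members. Stricter hashtag assignment left 2 calls, and other assignment, doublet and clustering settings left 4 or 5.

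**Figure D3:**
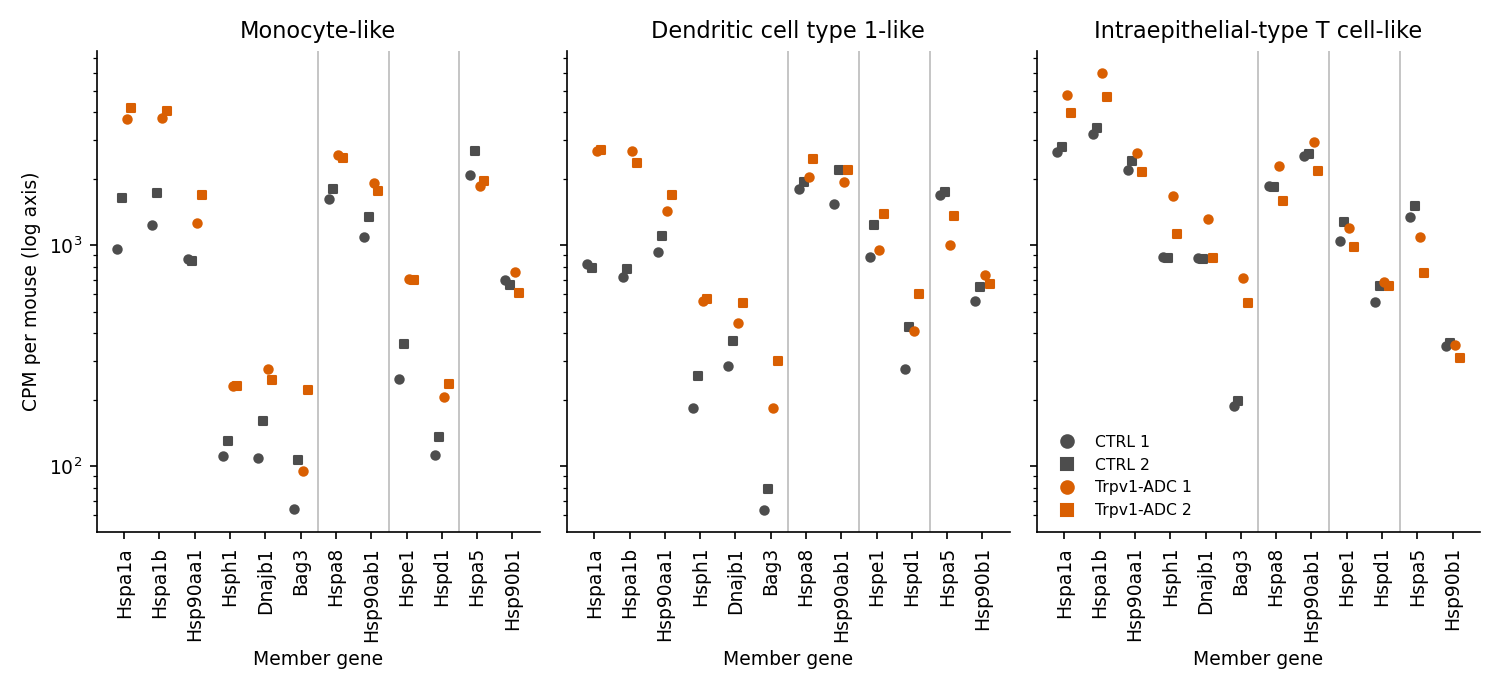
CPM of main members in monocyte-like, type 1 conventional dendritic cell-like and intraepithelial-type T cell-like cells, on a log axis, one point per mouse. Hspa1a and Hspa1b of the Trpv1-ADC mice lie above those of the CTRL mice in all 3 classes, while Hspe1 separates the groups in monocyte-like cells and overlaps in the other 2.

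Type 1 conventional dendritic cell-like cells, which present antigen to CD8 T cells, had 5 members called higher and 2 lower of 47, against 0.55% and 0.986% of all genes. The class was small, with 53, 71, 38 and 41 cells per mouse, and deep, with a median of 13989 to 16716 UMIs. Hspa1a stood at 823 and 790.4 CPM in CTRL and 2665 and 2708 in Trpv1-ADC mice (1.72 ± 0.11, edgeR adjusted p = 2.08e-09). Hspa1b stood at 719 and 778 against 2661 and 2352 (1.72 ± 0.12, edgeR adjusted p = 3.91e-09). The mice of a group lay close to each other for both genes, and the groups were far apart. Hsph1 rose from 184 and 255 to 559 and 574 CPM (1.34 ± 0.19, edgeR adjusted p = 3.09e-04). Bag3 rose from 63.2 and 79.4 to 183 and 299 (1.73 ± 0.25, 3.80e-04). Hsp90aa1 rose from 936 and 1105 to 1424 and 1684 (0.59 ± 0.13, 0.0215), a call lost without Trpv1-ADC 1 (0.0718) or Trpv1-ADC 2 (0.342). The 5 that rose are all of the inducible list, of which 9 of 10 tested had their groups apart and higher in this class and 0 lower (background 21.2% and 18.2%).

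The relatives of these genes in type 1 conventional dendritic cell-like cells did not pass the test. Hspa8 gave 0.26 (1791, 1935, 2045 and 2466 CPM, edgeR adjusted p = 0.387) and Hsp90ab1 0.13. Hspe1 overlapped at 884, 1237, 951 and 1384 CPM (0.12, edgeR adjusted p = 0.933), and Hspd1 gave 0.50 (0.455). Dnajb1 (284.5, 368, 446 and 551 CPM, 0.136), Dnaja1 (0.538) and Hspb1 (31.6, 12.2, 76.0 and 42.3 CPM, 0.130) were not called. Hspa9 lay between 75.3 and 95.5 CPM and Hsp90b1 between 562 and 731 in the 4 mice.

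Both members called lower in this class belong to the endoplasmic reticulum. Hspa5 fell from 1688 and 1737 to 1003 and 1354 CPM (-0.56 ± 0.13, edgeR adjusted p = 0.0332), a call lost without Trpv1-ADC 1 (0.499). Dnajb14, a J-domain protein of the reticulum membrane, stood at 388 and 280.2 against 77.9 and 64.9 CPM (-2.24 ± 0.24, edgeR adjusted p = 6.23e-06). Its UMIs sat in few cells. In CTRL 1 the leading cells held 200 and 82 of 331 UMIs and in CTRL 2 they held 154, 80 and 38 of 346, while the top cell held 4 of 40 and 12 of 43 in the Trpv1-ADC mice. Without the top cell of each mouse the levels were 159 and 157 against 72.1 and 48.1 CPM, still apart. Without the top 3 cells of each mouse they were 56.1 and 61.9 against 63.5 and 35.3 CPM, and the groups overlapped. Without the Scrublet doublet filter, where a Trpv1-ADC 1 cell with 146 UMIs came in, the value was -0.48 (edgeR adjusted p = 0.947).

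Beside these results, mitochondrially encoded genes summed to 16430 and 14910 CPM in CTRL and 17640 and 17550 in Trpv1-ADC type 1 conventional dendritic cell-like cells. Neutrophil markers, with 2 of 9 at 0, summed to 381 and 307 against 121 and 232, and the class's own 8 markers to 4334 and 3907 against 5326 and 4724. Of 18 immediate early genes, Jun (221, 158, 670.1 and 533 CPM, 1.66) and Klf2 (0.72) rose and Junb (-0.64) fell, while their sum overlapped between 7558 and 9301. Herpud1, an unfolded protein response gene of protein disposal, fell beside Hspa5 (514, 500.5, 296 and 344 CPM, -0.68, edgeR adjusted p = 0.0499). The part of these lists was not tested.

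Intraepithelial-type T cell-like cells had 6 members called higher and 1 lower of 63, where the class as a whole had many calls (4.09% of all genes higher and 4.05% lower). The class held 439, 574, 279 and 208 cells, from 2 clusters. Hspa1a stood at 2631 and 2776 CPM in CTRL and 4764 and 3970 in Trpv1-ADC mice (0.64 ± 0.10, edgeR adjusted p = 0.0036). Hspa1b stood at 3202 and 3379 against 6038 and 4707 (0.65 ± 0.12, 0.0124). These were the smallest log2 fold changes of either gene among its calls, on the highest CTRL level of those classes. Bag3 rose from 187 and 197 to 709 and 546 CPM (1.65 ± 0.15, edgeR adjusted p = 2.13e-04). Dnajb4, a J-domain partner of HSP70, rose from 115 and 134 to 236 and 247 (0.89 ± 0.13, 0.0020), and Dnajc3, a helper of Hspa5, from 196 and 187 to 280.2 and 268 (0.46 ± 0.12, 0.0365). Hspa1l, an HSP70 gene beside Hspa1a best known from testis, had 1 and 0 UMIs in CTRL and 11 and 11 in Trpv1-ADC mice (edgeR adjusted p = 0.0031). That is a ratio of 48.5 per UMI (95% counting interval 7.85 to 2003), and its reads can be shared with its neighbours. Hspa1l passed the low-count filter in no other class, and here only through the Trpv1-ADC mice. Its direction was thus largely set by the filter, and the call is no support for a rise. Without CTRL 2 the call of Hspa1l was lost (0.0616), and without either CTRL mouse that of Dnajc3 (0.256 and 0.341). Without Trpv1-ADC 1 edgeR called 6 members higher and 11 lower, and without Trpv1-ADC 2 it called 9 higher and 4 lower.

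Dnajb9 is a J-domain partner of Hspa5 in the reticulum. In intraepithelial-type T cell-like cells it fell from 130 and 132 to 106 and 80.5 CPM (-0.54 ± 0.15, edgeR adjusted p = 0.0469). The call held in 5 of 16 alternatives, and was lost without CTRL 1, CTRL 2 or Trpv1-ADC 2 (0.119 to 0.155). Hspa5 was at 1349 and 1506 against 1093 and 747 CPM and missed the threshold (-0.69, 0.0703). Several members that rose in monocyte-like cells overlapped here. Hspe1 stood at 1050, 1280, 1197 and 987 CPM (-0.15), Hsp90ab1 at 2531, 2580, 2944 and 2166 (-0.05) and Hsp90aa1 at 2187, 2400, 2607 and 2141 (-0.01). Hspa8 (1861, 1828, 2294 and 1579 CPM, 0.02) had its 2 Trpv1-ADC mice on either side of the CTRL mice, and without Trpv1-ADC 1 it was -0.34 (edgeR adjusted p = 3.59e-04). Hsph1 (881, 879.5, 1677 and 1125 CPM) gave 0.62 with an edgeR adjusted p of 0.101, and Dnajb1 (880, 869.9, 1318 and 876 CPM) gave 0.27. Hspb1 (119, 192, 284 and 166 CPM), Dnaja1, Hspd1, Hspa9 and Hsp90b1 did not pass, at 0.49, -0.33, 0.09, -0.45 and -0.15. Of the inducible list, Hspa1a, Hspa1b, Hsph1, Bag3 and Dnajb4 had their groups apart and higher in this class. Hsp90aa1, Dnaja1, Dnajb1, Hspa4l and Hspb1 overlapped. Differences were common in this class, where 2450 of all 10329 genes had a raw edgeR p under 0.05. The number of inducible members apart here is therefore a description and no result about the list.

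Of 37 genes of the same pathway outside the symbol rule, 36 were tested in this class, where 4 rose and 0 fell, and 4.09% of all genes were called higher. These were St13 (0.48) and Chordc1 (0.55), co-chaperones of HSP70 and HSP90, and the HSP90 immunophilins Fkbp4 (0.57) and Fkbp5 (0.54). Of 16 unfolded protein response genes, Xbp1 (-0.88) and Atf4 (-0.85) fell, and the list summed to 1973 and 1964 CPM in CTRL and 1687 and 1707 in Trpv1-ADC mice. Of 18 immediate early genes, Jun (0.96), Klf2 (0.72) and Nr4a1 (0.53) rose and Socs3 (-0.78) fell, with an overlapping sum. Mitochondrially encoded genes summed to 27850 and 28420 against 30500 and 30110. The 2 clusters of the class had different make-up, with 274, 349, 204 and 140 cells in one and 165, 225, 75 and 68 in the other. The second alone called 3 members. The part of these measures was not tested.

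ILC3-like cells had 6 members called higher and 0 lower of 49 (background 0.262% and 0.233%). Bag3 rose from 65.5 and 91.3 CPM in CTRL to 439 and 262 in Trpv1-ADC mice (2.16 ± 0.30, edgeR adjusted p = 0.0186). Hspe1 rose from 353 and 425 to 773 and 769.9 (1.00 ± 0.15, 0.0056). Dnaja4, a J-domain protein with 2 heat shock unit pairs in the stretch shown, rose from 97.2 and 67.1 to 207 and 182 (1.26 ± 0.22, 0.0162). Both HSP90 genes rose, Hsp90aa1 from 841 and 1155 to 1984 and 1655 (0.88 ± 0.17, 0.0401) and Hsp90ab1 from 1494 and 1627 to 2524 and 2450 (0.69 ± 0.13, 0.029). Groups were apart for each of these 5 genes. Both HSP90 calls were lost without CTRL 1 (0.0552 and 0.082), while the class gave 13, 11 and 10 calls without CTRL 2, Trpv1-ADC 1 and Trpv1-ADC 2.

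Hspb1 had the largest value among ILC3-like cells, from 4 and 7 UMIs to 41 and 52 (67.9 and 68.2 CPM, 2.68 ± 0.39, edgeR adjusted p = 0.0045). It passed the low-count filter only through the Trpv1-ADC mice. Its direction was thus largely set by the filter, and the call is no support for a rise. Only 4, 7, 7 and 12 cells held a UMI of Hspb1, and the top cell held 56.1% and 61.5% of the UMIs of the Trpv1-ADC mice. Without the top cell of each mouse it stood at 6.03 and 11.4 against 30.3 and 26.5 CPM, and without the top 3 at 2.08 and 7.72 against 10.3 and 14.8, from 1 to 11 UMIs a mouse. Hspa1a and Hspa1b did not pass, with 712 and 1472 against 4342 and 3279 CPM (1.81, 0.437) and 1165 and 1912 against 5564 and 3651 (1.60, 0.353). Their groups were apart, and the mice within a group differed more than in type 1 conventional dendritic cell-like cells. Pathway genes outside the rule gave 0 calls of 32 in this class (edgeR, 6 at a raw p under 0.05, where 708 of all 6867 genes reached it).

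Type 2 conventional dendritic cell-like cells had 5 of 38 called higher and 0 lower (background 0.285% and 0.0949%). Hspa1b rose from 1326 and 1906 to 2984 and 3299 CPM (0.96 ± 0.15, edgeR adjusted p = 0.0078). Bag3 rose from 78.0 and 72.0 to 202 and 231 (1.52 ± 0.29, 0.0101) and Hsph1 from 137 and 257 to 495 and 463 (1.29 ± 0.27, 0.0239). Hsp90aa1 (0.71 ± 0.15, 0.0239) and Hspa8 (0.60 ± 0.13, 0.0321) rose too. Hspa5 was lower in level in both Trpv1-ADC mice, at 1567 and 1795 against 1221 and 965 CPM, and did not pass (-0.61, 0.0987). Without CTRL 1 edgeR called 0 members and without CTRL 2 it called 3, against 10 without Trpv1-ADC 2.

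Natural killer cell or ILC1-like cells had 3 of 52 called higher and 0 lower (background 0.0532% and 0%). Dnajb1 rose from 267 and 375 to 894 and 959 CPM (1.55 ± 0.16, edgeR adjusted p = 0.0019). Hsph1 rose from 225 and 315 to 706 and 605 (1.30 ± 0.17, 0.0097) and Hspe1 from 415 and 572 to 997 and 1056 (1.07 ± 0.15, 0.0169). Immediate early genes summed to 9964 and 11100 against 15350 and 12650 CPM in this class, with Jun called higher (1.12), and their part was not tested. Leaving out each mouse in turn gave 8 to 12 calls.

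Memory CD8 T cell-like cells had 3 of 56 called higher and 0 lower (background 0.184% and 0.0805%). Hspa1a rose from 354 and 480.2 to 1310 and 1664 CPM (1.85 ± 0.15, edgeR adjusted p = 2.77e-04). Hsph1 rose from 140 and 171 to 329 and 474 (1.40 ± 0.16, 2.17e-04) and Dnaja4 from 22.0 and 26.8 to 50.6 and 62.9 (1.26 ± 0.23, 0.0134), a call lost without CTRL 1 (0.0644). The pathway gene Cacybp, which encodes the calcyclin binding protein, rose in the same class (37.1, 60.7, 89.4 and 111 CPM, 1.10, edgeR adjusted p = 0.0184). Of 18 immediate early genes 2 rose there, Atf3 (54.0, 69.4, 135 and 156 CPM, 1.27, 2.77e-04) and Zfp36 (156, 172, 299 and 255 CPM, 0.76, 0.0112), with 10 at a raw p under 0.05. Of all genes in the class, 621 of 8696 had a raw p under 0.05. The sum of the immediate early genes was 6970 and 8303 CPM in CTRL and 10050 and 8698 in Trpv1-ADC mice, and its part was not tested. Leaving out each mouse in turn gave 6 to 14 calls in this class.

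Effector CD4 T cell-like cells had 1 of 40 called higher (background 0.0611%), Hsph1, from 352 and 575 to 927 and 1242 (1.21 ± 0.22, 0.047). Naive CD8 T cell-like cells had 1 of 62 called higher (background 0.0476%), Hspb1, from 6.51 and 8.74 to 21.8 and 25.6 CPM (1.66 ± 0.25, 0.020).

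edgeR called no member in the 6 remaining classes: 0 of 60 in B cell-like cells (background 0.0943% higher and 0.0472% lower), 0 of 60 in follicular helper CD4 T cell-like cells (0.0103% and 0.0206%) and 0 of 62 in the naive CD4 T class (0.0457% and 0.064%). It called 0 of 38 in ILC2-like (0.0417% and 0.0834%), 0 of 40 in macrophage-like (0.0171% and 0.0683%) and 0 of 59 in regulatory T cell-like cells (0.495% and 0.726%). At a raw p under 0.05 there were 6, 7, 7, 3, 7 and 12 members in the same order. Over all genes there were 927 of 10600, 643 of 9723 and 845 of 10945 in the first 3 of these classes. In the others there were 343 of 4795, 709 of 5860 and 981 of 9498, so the member counts are descriptions. DESeq2 called 1 in macrophage-like cells and 0 in the other 5. Leaving out a mouse, which leaves its group with 1, gave up to 6, 11, 6, 4, 6 and 10 calls in these classes. These classes did not lack differences in level. In macrophage-like cells immediate early genes summed to 23990 and 22730 CPM in CTRL and 14900 and 10290 in Trpv1-ADC mice, with Zfp36 called lower (1989, 2014, 698 and 507 CPM, -1.76, edgeR adjusted p = 0.0107), and their part was not tested. In B cell-like cells Hspa1a stood at 221 and 510.1 CPM in CTRL and 1309 and 2508 in Trpv1-ADC mice, a log2 fold change of 2.39 ± 0.75 (edgeR adjusted p = 0.620), larger than any called value of that gene. All 10 inducible members tested in B cell-like cells had their groups apart and higher (background 18.2%, and 20.5% lower), as had all 10 in follicular helper CD4 T cell-like cells (20.6%). The spread between the mice of a group was wide there: Hspa1a differed 2-fold or more between CTRL 1 and CTRL 2 in B cell-like (221 and 510.1), follicular helper (248 and 635) and naive CD4 T (127 and 338) cell-like classes.

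The make-up of the B cell-like class differed between mice. A cluster with 201, 169, 117 and 42 cells and another with 33, 69, 151 and 264 cells ran in opposite directions over the mice. Stip1, the adaptor between HSP70 and HSP90 and outside the symbol rule, was called higher in the class (60.7, 70.7, 110 and 145 CPM, 0.96, edgeR adjusted p = 0.0181). Hspa5 was positive in this class only, at 782, 818, 866 and 949.8 CPM (0.20). The 37 pathway genes outside the rule summed to 2932, 3105, 3451 and 3667 CPM. Immediate early genes summed to 7618, 9329, 10930 and 10240, and the part of these measures was not tested.

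Regulatory T cell-like cells, the class named in the study's title, had no member called. Hspa1a was at 1001 and 1178 CPM in CTRL and 1306 and 1496 in Trpv1-ADC mice (0.35 ± 0.10, edgeR adjusted p = 0.0836). Hspa1b overlapped at 1245, 1592, 1527 and 1794 (0.22), and Dnajb1 overlapped at 212, 267, 191 and 287. The mitochondrial chaperonin differed more in level: Hspd1 stood at 206, 243, 304 and 480.4 CPM (0.81 ± 0.25, edgeR adjusted p = 0.401) and Hspe1 at 433, 546, 589 and 814 (0.51 ± 0.17, 0.290). Groups were apart for both. The pathway gene St13, a helper of HSP70, rose (157, 171, 240.1 and 217 CPM, 0.46, edgeR adjusted p = 0.0418). The immediate early gene Fosb fell (702, 780.4, 489 and 447 CPM, -0.68, 2.20e-04). The difference itself between classes was tested by an edgeR interaction with mouse as a block. Monocyte-like cells, the class with the most members called, were the reference throughout, which favours larger effects there. Against regulatory T cell-like cells, 0.655% of all genes were called in either direction. Of 59 members, 5 had a larger effect in monocyte-like cells. They were Hspa1b (difference in log2 fold change 1.16 ± 0.10, adjusted p = 1.35e-10), Hspa1a (1.25 ± 0.15, 0.0025), Hspe1 (0.70 ± 0.15, 0.0139), Dnajb1 (0.96 ± 0.21, 0.0193) and Hsp90ab1 (0.44 ± 0.11, 0.0360). Without CTRL 1 or CTRL 2 there were 2 such members, and without Trpv1-ADC 1 there was 1.

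Against other classes the same test separated fewer members. Hspe1 had a larger effect in monocyte-like than in intraepithelial-type T cell-like cells (1.36 ± 0.18, edgeR interaction adjusted p = 1.96e-04), where Hsp90ab1 was the other of 2 in 57 (0.65, 0.0484; background 0.844%). Hspe1 was also the 1 member separated from type 1 conventional dendritic cell-like cells (1.13 ± 0.19, 0.0115; background 0.157%) and the 1 from ILC2-like cells (1.22 ± 0.25, 0.0095; background 0.443%). Hspa1a and Hspa1b had larger effects than in effector CD4 T cell-like cells (0.97 and 0.87, 0.0107 and 0.0376; background 0.0543%). Hspa1b and Hspe1 had larger effects than in macrophage-like cells (1.10 and 1.07, 0.0162 and 0.0311; background 0.794%). In B cell-like cells the effect was larger for Dnaja1 (-0.90 ± 0.17, 0.0034) and of opposite sign for Hspa5 (-0.53 ± 0.13, 0.0396; background 0.864%). The edgeR interaction test called 0 members against the other 7 classes, where backgrounds were 0.0293% (type 2 conventional dendritic), 0.106% (ILC3), 0.176% (follicular helper), 0.25% (natural killer or ILC1), 0.309% (memory CD8), 0.451% (naive CD8) and 0.54% (naive CD4), and this does not show that the effects were alike.

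Over all sorted cells together, where shares of classes also enter, edgeR called 0 of 71 members (background 0.0534% higher and 0.203% lower), and DESeq2 called 10. At a raw edgeR p under 0.05 there were 17 members, some higher and some lower, where 3392 of all 18721 genes reached it. Hspa1a stood at 838, 1092, 1578 and 1819 CPM (0.83, edgeR adjusted p = 0.128) and Hspa1b at 989, 1282, 1801 and 1901 (0.72, 0.122). Hspa5 stood at 1232 and 1240 in CTRL and 956 and 907 in Trpv1-ADC mice (-0.39, 0.0640). Groups were apart for all 3. Of the 37 pathway genes outside the rule, edgeR called 0, with 12 at a raw p under 0.05 and a median of 0.127.

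The inducible members were not spread evenly over the cells of a class. Per cell, their sum in monocyte-like cells had medians of 24.0 and 36.5 per 10000 UMIs in CTRL and 78.3 and 89.0 in Trpv1-ADC mice. The cells at the 10th percentile stood at 5.67, 8.81, 17.5 and 41.0, and those at the 90th at 96.7, 131, 214 and 219. The whole distribution was thus higher in the Trpv1-ADC mice. In B cell-like cells the medians were 10.1, 16.7, 36.0 and 76.5, and the 10th percentile of Trpv1-ADC 2 (22.8) lay above the median of both CTRL mice. In naive CD8 T cell-like cells the medians were 10.1, 13.5, 14.6 and 35.1, so that Trpv1-ADC 2 alone stood off. Medians of regulatory T cell-like cells were 16.5, 26.3, 25.1 and 39.5, and those of intraepithelial-type T cell-like cells 94.3, 107, 179 and 128.

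**Figure D4:**
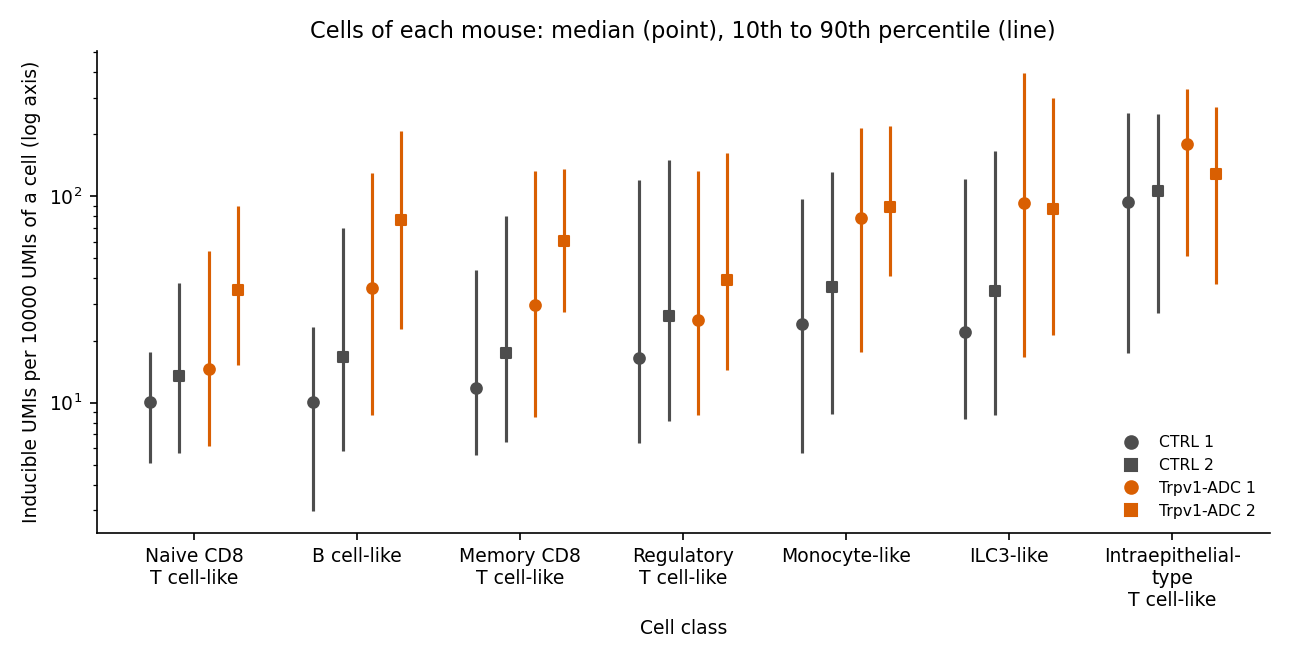
Inducible UMIs per 10000 UMIs of a cell, by class and mouse, with the median as a point and a line from the 10th to the 90th percentile, on a log axis. In monocyte-like cells the medians are 24.0 and 36.5 in CTRL and 78.3 and 89.0 in Trpv1-ADC mice, and in regulatory T cell-like cells the ranges overlap widely.

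For all 41 calls, the groups remained apart after the cell with the most UMIs of that gene was left out of each mouse (38 higher and 3 lower). Without the top 3 cells of each mouse, 38 remained apart and higher and 2 apart and lower, and Dnajb14 in type 1 conventional dendritic cell-like cells overlapped. Both checks were chosen after seeing the data and compare levels, with no new test.

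Members also marked classes by level, described here as means over the 4 mice with their range, since a class is built from the same cells. Dnajc6, the auxilin that strips clathrin coats, was highest in ILC3-like cells, at 142 CPM (93.2 to 182), followed by intraepithelial-type T cell-like cells at 40.0 (32.2 to 45.9), ranges that do not overlap. Dnajb14 was highest in type 1 conventional dendritic cell-like cells, at 203 CPM (64.9 to 388), followed by macrophage-like cells at 67.9 (57.5 to 84.5). These ranges overlap, and the mean of the former rests on the few CTRL cells named above. Hsp90b1 was highest in macrophage-like cells, at 1098 CPM (804 to 1489), above monocyte-like cells at 682 (608 to 759), again without overlap. Hspa5 had the same leading classes, at 2843 (1395 to 4319) and 2140 CPM (1863 to 2665), and these ranges overlapped.

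Among these members by level, Hsph1, Dnajb1, Hsp90aa1 and Dnajb4 of the inducible list and Hspd1 of the mitochondrial list were highest in intraepithelial-type T cell-like cells. Hsph1 averaged 1140 CPM there (879.5 to 1677) against 774 (352 to 1242) in effector CD4 T cell-like cells, the next class, and Dnajb1 986 (869.9 to 1318) against 690.1 (286 to 987) in ILC3-like cells. Hsp90aa1 averaged 2334 (2141 to 2607) against 1741 (1288 to 2035) in effector CD4 T cell-like cells, ranges that do not overlap. Dnajb4 averaged 183 (115 to 247) against 114 (98.6 to 139) in natural killer cell or ILC1-like cells, and Hspd1 636 (554 to 684) against 444 (165 to 858) in B cell-like cells. Except for Hsp90aa1, the ranges of these 5 overlapped. Dnaja2 was highest in naive CD8 T cell-like cells, at 310 CPM (278 to 371), above memory CD8 T cell-like cells at 229 (211 to 243). The flattest members were Bag6, from 37.9 to 59.5 CPM over the class means, Hspa9, from 81.4 to 128, and Dnajc19, from 43.1 to 69.0.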

How the data were processed

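Values are the authors' raw counts: a deposited matrix of UMI counts (55487 symbols by 23063 barcodes, 174231251 UMIs) and a deposited matrix of hashtag counts for those barcodes, whole numbers by inspection. Cell Ranger, Seurat and mouse build mm10 are named, without versions, per the submitters' processing notes. Their settings, the annotation and the choice of barcodes are not given in the sources used here. Both 5′ and 3′ chemistry appear in the labels. All mice share 1 run, so no barcodes could be shared between runs.

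Barcodes were kept from 500 UMIs and 200 genes upward if mitochondrial UMIs made up 10% or less, which left 22729. A cell belonged to the mouse of its top tag, with at least 10 counts and at least 3 times the next, which gave 19571 singlets, 3105 doublets and 53 barcodes with no tag. Scrublet in scanpy 1.11.5 (expected rate 0.2, threshold 0.357) removed 2238 singlets and marked 45.48% of tag doublets. The remaining cells were clustered without member genes (2000 variable genes, 30 principal components, 15 neighbours, Leiden with leidenalg 0.10.2 at resolution 1), and T and innate lymphocytes, myeloid cells and B cells were clustered again at resolution 1, a step added after the first clusters were seen.

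UMIs summed per mouse and class were tested with edgeR 4.0.16 (TMM, filterByExpr, robust quasi-likelihood, two-sided, no covariate, limma 3.58.1, R 4.3.3). The SE is the log2 fold change divided by the square root of F. The difference between monocyte-like and each other class was tested as an interaction with mouse as a block. Precision rests on total counts per class and mouse and on the spread between the mice of a group. DESeq2 1.42.0, HTODemux of Seurat 5.3.0, other filters and other clusterings were alternatives. The smallest two-sided permutation p with 2 mice per group is 0.333, so none is given. In simulated counts with known changes, all genes of a class had a common dispersion. By class, 79% to 100% of 4-fold changes were called, 12.5% to 75.8% of 2-fold and 1.54% to 37.5% of 1.5-fold ones, with 1 to 11 false calls.

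The members, role lists and other gene lists were chosen with earlier results of these data known. Named with values are members past the threshold in a class, 15 main members in the 3 classes with most calls, the 10 members with the largest ratio of highest to next class mean among those reaching 50 CPM, the 3 with the smallest ratio of highest to lowest, and members of the other lists past the threshold in classes described. Other genes named were chosen after their values were seen.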

Additional observations from a re-analysis of the deposited data

Results flagged for a closer look

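For 15 pairs of a member and a class, the effect in monocyte-like cells differed from that in the other class by the test of the difference itself, an edgeR interaction with mouse as a block, adjusted within a pair of classes. Values are the log2 fold change in monocyte-like cells minus that in the other class. For Hspe1 the effect differed from that in 5 classes: intraepithelial-type T cell-like (1.36, SE 0.18, adjusted p = 1.96e-04), ILC2-like (1.22, 0.25, 0.0095), type 1 conventional dendritic cell-like (1.13, 0.19, 0.0115), macrophage-like (1.07, 0.25, 0.0311) and regulatory T cell-like cells (0.70, 0.15, 0.0139). For Hspa1b it differed from that in regulatory T cell-like (1.16, 0.10, 1.35e-10), macrophage-like (1.10, 0.21, 0.0162) and effector CD4 T cell-like cells (0.87, 0.17, 0.0376). For Hspa1a it differed from that in regulatory T cell-like (1.25, 0.15, 0.0025) and effector CD4 T cell-like cells (0.97, 0.16, 0.0107). For Hsp90ab1 it differed from that in intraepithelial-type (0.65, 0.16, 0.0484) and regulatory T cell-like cells (0.44, 0.11, 0.0360), and for Dnajb1 from that in regulatory T cell-like cells (0.96, 0.21, 0.0193). Against B cell-like cells the differences of Dnaja1 (-0.90, 0.17, 0.0034) and Hspa5 (-0.53, 0.13, 0.0396) were negative, so the effect was higher in B cell-like cells. Each pair of classes comes from the same 4 mice. Monocyte-like cells, with the most members called of any class, were the reference of every pair, which favours larger effects there.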

How the results depend on the processing

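The 41 calls were refitted under 600 combinations of a call and an alternative: 467 kept the call, 133 lost it with the same direction and 0 reversed. Members called over the 15 classes, 41 here (38 higher and 3 lower), were 98 without the low-count filter (82 and 16), 115 with mouse number as a replicate block (106 and 9), 59 to 117 when each mouse was left out, and 35 to 42 under the others run. The lone mouse is then assumed to vary like the other group. Monocyte-like calls, 8 here, were 5 with HTODemux, without Scrublet and with members kept in clustering, 4 at Leiden resolution 2 and in cluster M1 alone, 2 with strict tags and 0 to 11 when each mouse was left out. Intraepithelial-type calls, 7 here (6 higher and 1 lower), were 15 without the filter (6 and 9), 11 with the replicate block and with strict tags (7 and 4 in each), 3 in cluster T7 alone (3 and 0) and 8 to 17 when each mouse was left out (6 and 11 without Trpv1-ADC 1). Over all cells, 0 here, there were 10 with DESeq2, 7 without the filter, 11 with the replicate block, 4 with strict tags and 0 to 3 when each mouse was left out. Differences between classes, 15 here, were 31 without the filter and 9 to 40 when each mouse was left out, and for regulatory T cell-like cells 1 to 5. The mouse numbers share only a number: deviations of same-numbered mice correlated at -0.082 to 0.136, with 2 pairs. The ratio to endoplasmic reticulum members, 1.2, was 0.91 without Hspa1a and Hspa1b, 0.83 as a mean of log2(CPM + 1) and 1.01 to 1.47 when each mouse was left out, a check chosen after seeing the data. That to mitochondrial members, 0.57, was 0.23 without Hspa1a and Hspa1b and 0.41 to 0.66. Of the members not called, Hspa8 in intraepithelial-type T cell-like cells reversed, from 0.02 to -0.34 (edgeR adjusted p = 3.59e-04) without Trpv1-ADC 1, and was 0.27 without Trpv1-ADC 2. The cause of these differences was not tested. Classes with few cells limit what could be called: the simulated 2-fold changes were mostly missed in the smallest ones. That simulation, with a common dispersion for all genes of a class, leaves out members whose mice of a group differed widely. In B cell-like cells it recovered 100% of 4-fold changes, while Hspa1a there, with a wide spread between mice, was not called.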

Other observations

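Plasma cell-like cells, which secrete antibody, and other classes with fewer than 20 cells in a mouse were not tested, and their values are given without a comparison. In plasma cell-like cells (56, 53, 30 and 15 cells in CTRL 1, CTRL 2, Trpv1-ADC 1 and Trpv1-ADC 2) Hsp90b1, the HSP90 of the endoplasmic reticulum, stood at 2401, 2678, 3105 and 3821 CPM, where the highest mean of a tested class was 1098. Hspa5 stood at 1010, 1009, 1159 and 1782 CPM there, where macrophage-like cells averaged 2843. Hspb1 had 230 and 150 UMIs in the CTRL mice and 2 and 1 in the Trpv1-ADC mice. These are raw UMIs, not scaled to a common total, from few cells. How many cells held them is not given, so they show no difference between groups.

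Neutrophil-like cells (42, 30, 16 and 16 cells) had Hspa1a at 165, 139, 782 and 1251 CPM and Hspa1b at 244, 177, 880 and 188. In Trpv1-ADC 2 these near-identical genes had 60 and 9 UMIs. In cycling cell-like clusters (19, 41, 30 and 32 cells) Hspa1a stood at 146, 201, 337 and 680 CPM. Gamma delta T cell-like cells (48, 18, 20 and 26 cells) had Hspa1b at 1803, 892, 2639 and 4452 CPM. Non-immune clusters, a mix of cell types, had Hspb1 at 494, 570, 506 and 838 CPM and Hspa1a at 1500, 1766, 2781 and 2307.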
